A study of Mus musculus with 10 samples.

Results

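Ezh2 and Ezh1 are the 2 alternative catalytic subunits of Polycomb repressive complex 2 (PRC2), and they are described here through every array probe assigned to them. A probe was taken when its RefSeq accession belonged to either gene, which gave 4 of the 55681 probes, 1 for Ezh2 (A_55_P2041397, accession NM_007971) and 3 for Ezh1 (A_55_P2082869, A_55_P2155942 and A_55_P2017086, all NM_007970). The array named 20968 genes in this way. The Ezh1 probes are called probe 1, 2 and 3 in the order given, from the brightest to the dimmest. In GRCm38.p6, the RefSeq table places Ezh2 on chromosome 6, from 47530274 to 47595270, and Ezh1 on chromosome 11, from 101191115 to 101226463. The place of the probes within the transcripts was not known from the sources.

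RNA came from bone marrow LSK cells, which lack lineage markers and carry Sca-1 and c-Kit and which include blood stem cells with the earliest progenitors. They were sorted by the marker CD45.2 from C57BL/6 mice after transplantation and tamoxifen. Every array, WT ones included, carried the tamoxifen-inducible Cre-Ert, and the KO arrays carried it with Ezh2 fl/fl, so that tamoxifen deletes Ezh2 in the KO cells. At 9-12 months after transplantation there were 7 KO arrays: 3 labelled MDS/MPN (an overlap of myelodysplastic syndrome and myeloproliferative neoplasm), 2 labelled MDS (myelodysplastic syndrome), 1 whose disease was not determined and 1 mixed sample of several diseases. The mixed sample may hold mice that also have arrays of their own. There was 1 WT array at 9-12 months, and 1 KO and 1 WT array at 3 months, none of these with disease. The disease label of MDS/MPN array 1 adds TC and the source label of array 3 adds CMMoL, without a definition in the sources used here. The design text gives n = 3 at 3 months, where 1 array per genotype was analysed, and whether the mixed, 3-month and WT arrays pool mice is not stated. The exons that Cre removes are not given either, so the Ezh2 signal could not serve as a check of the genotype labels.

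The 2 arrays labelled 3 months were on slide 1 and the other 8 on slide 2, so time and slide cannot be told apart. The value table that accompanies the scanner files had 4 columns with exchanged times, 3 months for 9-12 months within each genotype. The labels of the scanner files were used, and which of the 2 sources is right could not be settled, so each 3-month, mixed and WT value below rests on that choice of time label. The closest of all array pairs was the mixed KO array with the 9-12-month WT array, with an SD of the log2 differences of 0.31 over 16681 probes. Between 32.5% and 47.5% of probes were well above background on an array, and the 75th percentile of signal was between 78.7 and 301.7 intensity units. MDS/MPN array 2 had the highest of both. All 5 LSK gate markers (Kit, Ly6a, Ptprc, Cd34 and Flt3) were well above background on all 10 arrays. Since the samples were bulk RNA, fewer cells of a type and less RNA per cell cannot be told apart.

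PRC2 methylates histone H3 at the lysine called H3K27, a mark of silenced genes, and the complex needs Eed and Suz12 beside its catalytic subunit. Ezh2 is known as the more active enzyme and as the form of dividing cells, where its gene is transcribed with the cell cycle under E2F factors. Ezh1 is a weaker methyltransferase that is known from resting and differentiated cells, and in mouse bone marrow it is known to be needed to maintain adult blood stem cells.

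The promoters of both genes are shown because the array values are set below against genes of mitosis and of DNA replication, replication genes being known, like Ezh2, as E2F targets. The sequences are those of RefSeq on GRCm38.p6, from 250 bases before to 50 bases after the listed start, on the minus strand, at chr6:47594981-47595280 for Ezh2 and chr11:101226414-101226713 for Ezh1. The Ezh1 start is the end of its gene interval, 101226463. The Ezh2 start is 47595030, which lies 240 bases inside the gene interval given above, so positions hold for that start only. Capitals mark matches, on either strand, to the letters searched, which were the E2F words TTTGGCGC, TTTCCCGC, TTTCGCGC and TTTGCCGC, the CCAAT box and the cell-cycle homology word TTTGAA. The words were chosen after the Ezh2 sequence had been seen.
Ezh2: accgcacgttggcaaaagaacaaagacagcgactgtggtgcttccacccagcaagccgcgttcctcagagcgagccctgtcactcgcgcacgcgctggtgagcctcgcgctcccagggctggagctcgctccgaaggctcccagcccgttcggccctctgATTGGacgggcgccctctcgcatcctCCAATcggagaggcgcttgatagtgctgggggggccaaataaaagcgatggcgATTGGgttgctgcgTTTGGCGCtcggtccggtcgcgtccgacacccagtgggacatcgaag
Ezh1: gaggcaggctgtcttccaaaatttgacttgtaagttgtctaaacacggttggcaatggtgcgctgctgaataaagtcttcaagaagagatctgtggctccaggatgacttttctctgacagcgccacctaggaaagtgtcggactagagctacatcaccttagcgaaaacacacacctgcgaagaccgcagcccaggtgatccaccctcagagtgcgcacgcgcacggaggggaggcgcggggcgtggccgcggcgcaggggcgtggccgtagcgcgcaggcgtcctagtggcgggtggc

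The Ezh2 window held 1 match to TTTGGCGC, which began 3 bases past the start and is found in 169 of 32851 promoters of the same length (0.514%). It also held 3 matches to CCAAT, a word found in 37.4% of promoters. The other 3 E2F words were absent from it, and any of the 4 occurs in 2.265% of promoters. The Ezh1 window held none of the words searched. TTTGAA, found in 17.9% of promoters, was in neither. GC content was 64.3% in the Ezh2 window and 59.3% in the Ezh1 window, against a median of 52.7% over all promoters. These are matches of letters and no measurement of binding.

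Signals are given below as log2 of the array's signal over its own 75th percentile, so that a difference of 1 is a 2-fold difference; the level of one probe says nothing about that of another. The Ezh2 probe was well above background on every array. It read 2.28, 3.35 and 2.24 on the 3 MDS/MPN arrays, 2.28 and 2.13 on the 2 MDS arrays, 2.63 on the undetermined array and 2.63 on the mixed KO array, against 2.63 on the 9-12-month WT array. At 3 months it read 2.71 on the KO array and 2.14 on the WT array. The KO arrays lay on both sides of the WT arrays, and the lowest KO value, 2.13, lay beside that of the 3-month WT array. From low to high, 5 arrays lay between 2.13 and 2.28 and 4 between 2.63 and 2.71, with MDS/MPN array 2 alone above them. Neighbours within either stretch differed by no more than the SD of the 2 MDS arrays, which was 0.10.

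**Figure D1:**
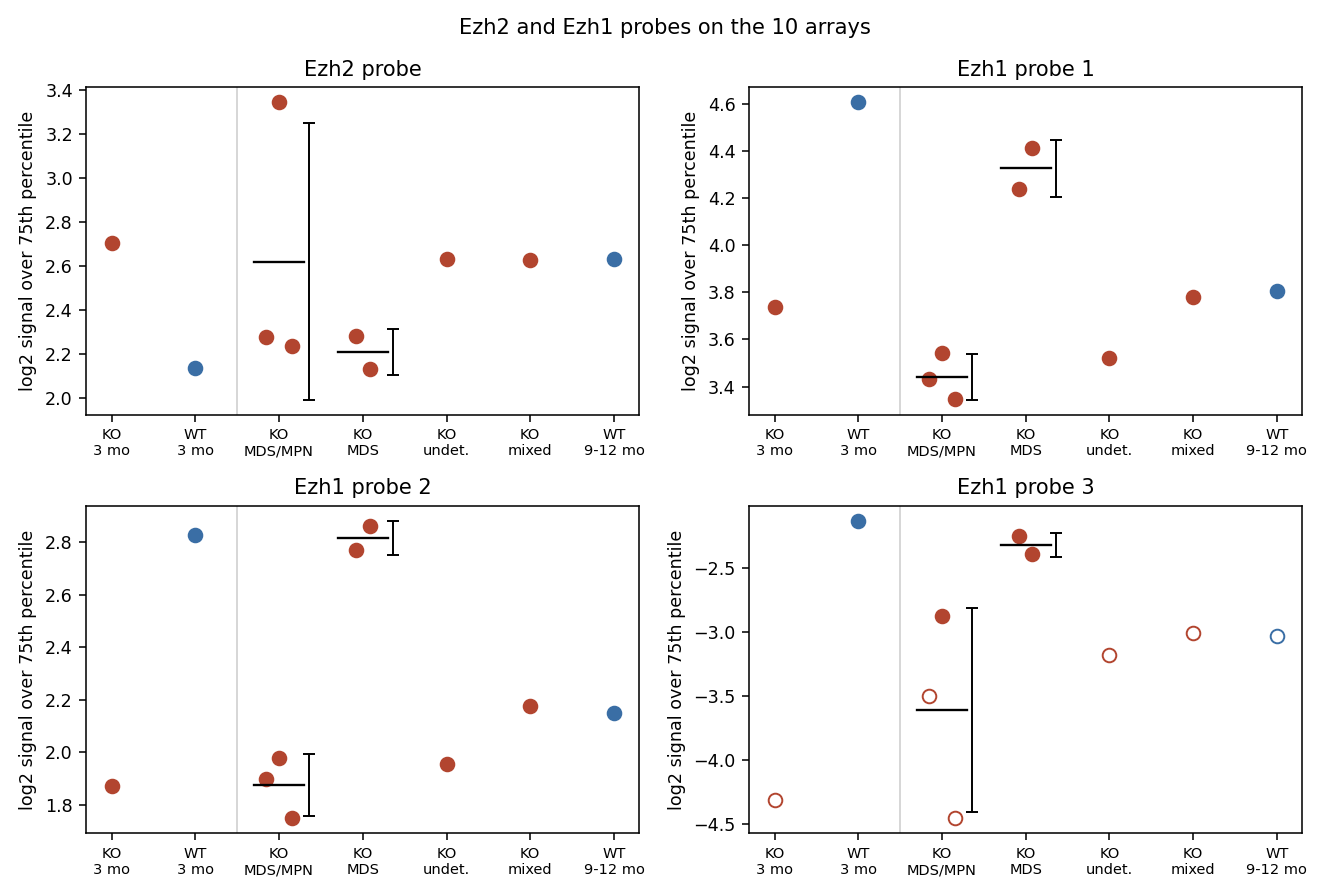
Log2 signal over the array's 75th percentile (vertical axes) for the Ezh2 probe and the 3 Ezh1 probes, by group, with KO arrays in red and WT arrays in blue. Open circles were not well above background, bars are means with SD for the 3 MDS/MPN and the 2 MDS arrays, and the grey line parts slide 1 from slide 2. The MDS/MPN arrays sit at 3.35 to 3.54 and the MDS arrays at 4.24 to 4.41 for Ezh1 probe 1, while the Ezh2 probe has a single high array at 3.35.

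Ezh1 probe 1 was well above background on every array. It read 3.43, 3.54 and 3.35 on the MDS/MPN arrays, 4.24 and 4.41 on the MDS arrays, 3.52 on the undetermined array and 3.78 on the mixed KO array, against 3.81 on the 9-12-month WT array. At 3 months it read 3.74 on the KO array and 4.61 on the WT array. The 3-month WT array was thus the highest and the 2 MDS arrays came next, apart from the other 7, which lay between 3.35 and 3.81. Neighbours among these 7 differed by less than the SD of the MDS arrays, 0.12, except MDS/MPN array 2, at 3.54, and the 3-month KO array, at 3.74.

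Ezh1 probe 2 read 1.90, 1.98 and 1.75 on the MDS/MPN arrays, 2.77 and 2.86 on the MDS arrays, 1.95 on the undetermined array and 2.18 on the mixed KO array, against 2.15 on the 9-12-month WT array. At 3 months it read 1.87 on the KO array and 2.83 on the WT array. The same 3 arrays were again the highest. The difference between probes 1 and 2 varied over the 10 arrays with an SD of only 0.12, and the correlation of their values was 0.962 (n = 10), both probes sharing RNA, array and scaling.

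Ezh1 probe 3 was dim, with an intensity of 4.0 to 41.1 units, and was well above background on 4 of 10 arrays: MDS/MPN array 2, both MDS arrays and the 3-month WT array. It read -3.50, -2.88 and -4.46 on the MDS/MPN arrays and -2.26 and -2.39 on the MDS arrays. The highest of all was the 3-month WT array, at -2.13, as for probe 1. Its correlation with probe 1 was 0.773 and with probe 2 was 0.864 (n = 10). The scanner's own error was 14.2% to 100.4% of its signal, against 10.0% to 10.3% for the other 3 probes.

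Neither gene passed the test between genotypes at 9-12 months. The 6 KO arrays of single mice were compared with the WT array of their slide by limma, a linear model with a spread shared across probes, with Benjamini-Hochberg adjustment over 23031 probes and a threshold of 0.05. With 1 WT array, its spread was taken to equal that of the KO arrays. The Ezh2 probe had a median of 2.28 (2.13 to 3.35) on the 6 KO arrays, against 2.63 on the WT array, a difference of -0.15 ± 0.51 (SE, limma adjusted p = 0.9999, 95% interval -1.32 to 1.02). Ezh1 probe 1 had a median of 3.53 (3.35 to 4.41) on the KO arrays, against 3.81 on the WT array, a difference of -0.06 ± 0.52 (limma adjusted p = 0.9999, 95% interval -1.23 to 1.11). With the time labels of the value table, this difference was -0.86 ± 0.52 (limma adjusted p = 0.473). Ezh1 probe 2 had a difference of 0.05 ± 0.53, and probe 3, which was not well above background on the WT array, is given no fold. Of all probes tested, 0.538% were called in this comparison and 0 of the 4 members. At an unadjusted p under 0.05 there were again 0 of the 4, against 4.47% of all probes. The intervals reach a 2-fold difference in either direction for Ezh2 and for Ezh1 probe 1, so such a difference could not be detected with these arrays.

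The same held with all 8 KO arrays against both WT arrays and slide as a block (26180 probes, 0.0% called, and 5.53% at an unadjusted p under 0.05). The Ezh2 probe averaged 2.53 ± 0.39 on the KO arrays (SD, n = 8) and 2.38 ± 0.35 on the WT arrays (SD, n = 2), a blocked difference of 0.13 ± 0.38 (limma adjusted p = 0.992, 95% interval -0.71 to 0.96). On slide 2 alone, this difference was -0.13, and without the mixed array, which may repeat mice, it was 0.12. Ezh1 probe 1 averaged 3.75 ± 0.38 on the KO arrays and 4.21 ± 0.57 on the WT arrays, a blocked difference of -0.35 ± 0.38 (limma adjusted p = 0.960, 95% interval -1.19 to 0.49). The 3-month pair decided most of this, and without the 3-month KO array the difference was -0.05. Without the mixed array it was -0.36. Ezh1 probe 2 differed by -0.32 ± 0.40 (limma adjusted p = 0.960). Probe 3 was well above background on 3 of 8 KO arrays and 1 of 2 WT arrays, and its difference, -0.83 ± 0.62 here, was -0.08 ± 0.17 with normexp background correction, so no size is read from it. KO and WT values overlapped for the other 3 probes.

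**Figure D2:**
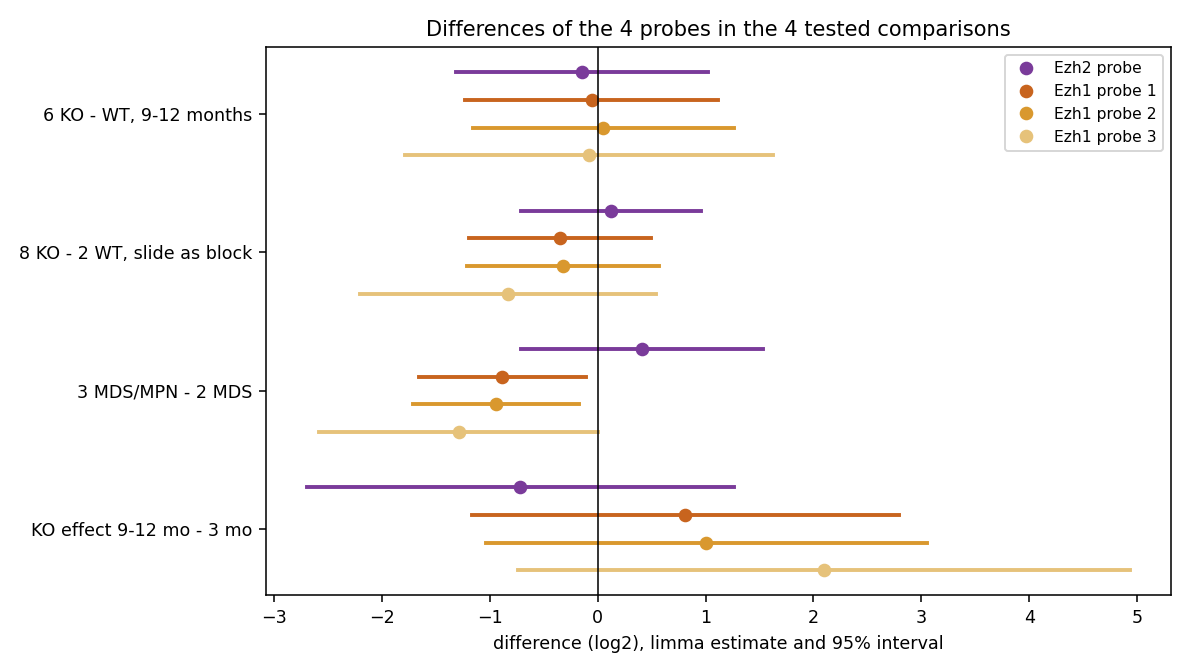
Difference in log2 signal (horizontal axis) for each of the 4 probes in the 4 comparisons tested with limma, with points for the estimate and lines for the 95% interval. Every interval for the Ezh2 probe spans 0, and those of Ezh1 probes 1 and 2 leave 0 only in MDS/MPN minus MDS, where no probe passed adjustment. Ezh1 probe 3 was well above background on 4 of 10 arrays, and its estimates are drawn without a size being read from them.

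The pairs of single arrays have no replicates and are given as values. At 3 months, Ezh1 probe 1 was 1.83-fold lower on the KO array than on the WT array (3.74 against 4.61) and probe 2 was 1.94-fold lower (1.87 against 2.83). Ezh1 probe 3 was not well above background on the KO array. Its difference was -2.18 as scaled here and -0.47 with normexp, so no size is read from it. The Ezh2 probe was 1.48-fold higher on the KO array than on the WT array (2.71 against 2.14). Between these 2 arrays, 12.1% of probes were at least 2-fold lower and 12.6% at least 2-fold higher. The mixed KO array and the 9-12-month WT array differed by -0.004 for Ezh2, -0.02 for Ezh1 probe 1 and 0.03 for probe 2, and here 4.19% of probes were at least 2-fold lower and 4.31% at least 2-fold higher.

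The 2 WT arrays differed from each other as well. The 9-12-month WT array minus the 3-month WT array was 0.49 for the Ezh2 probe, -0.80 for Ezh1 probe 1 and -0.68 for probe 2, with 13.6% of probes at least 2-fold lower and 9.93% at least 2-fold higher. The difference of the KO effects was also fitted, with the single 3-month and WT arrays taken to vary as the 6 KO arrays of single mice, which alone gave the spread. The later KO effect (9-12 months) exceeded the earlier (3 months) by -0.71 ± 0.87 for Ezh2, 0.81 ± 0.87 for Ezh1 probe 1 and 1.01 ± 0.90 for probe 2 (limma, 27221 probes, adjusted p = 1 for each, 0.0% of probes called and 4.86% at an unadjusted p under 0.05, with 0 of the 4 members). The 95% intervals were -2.69 to 1.26 for Ezh2 and -1.17 to 2.79 for Ezh1 probe 1. Under the time labels of the value table these differences turned sign, to 0.35 for Ezh2 and -0.83 for Ezh1 probe 1.

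Within KO mice, Ezh1 was the gene whose values parted by disease label. Ezh1 probe 1 averaged 3.44 ± 0.10 on the 3 MDS/MPN arrays and 4.33 ± 0.12 on the 2 MDS arrays (SD), a difference of -0.88 ± 0.31 (SE), or 1.85-fold lower, with a 95% interval of -1.66 to -0.11. Ezh1 probe 2 averaged 1.87 ± 0.12 on MDS/MPN arrays and 2.82 ± 0.07 on MDS arrays, a difference of -0.94 ± 0.31. The 2 groups did not overlap for either probe, but 11.8% of all 24343 probes tested were lower without overlap too. Ezh1 probe 3 was well above background on 1 of 3 MDS/MPN arrays and on both MDS arrays. On MDS/MPN arrays 1 and 3 the lowest signal well above background was -1.51 and -2.23, above both MDS values, so neither a size nor a direction is read from probe 3.

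Neither probe 1 nor probe 2 passed adjustment over all probes. The unadjusted limma p was 0.0315 for probe 1 and 0.0248 for probe 2, and each adjusted p was 0.979. In this comparison, 0.0% of probes were called after adjustment. At an unadjusted p under 0.05 were 4.54% of probes, 2.96% being lower, and 2 of the 4 member probes, both lower. These 2 are probes of 1 gene, Ezh1, on the same RNA, and are not separate observations. Without MDS/MPN array 2 the limma adjusted p was 0.117 for probe 1 and 0.116 for probe 2. In that fit, 4745 of 25206 probes were higher and 2831 lower at an unadjusted p under 0.05. Without MDS/MPN array 1 or 3 the unadjusted limma p was 0.104 and 0.106 for probe 1, and 0.0838 and 0.0918 for probe 2. Without MDS array 1 or 2 the difference was -0.97 and -0.80 for probe 1. The Ezh2 probe averaged 2.62 ± 0.63 on MDS/MPN arrays and 2.21 ± 0.10 on MDS arrays, overlapping, with a difference of 0.41 ± 0.46 (limma adjusted p = 0.979, 95% interval -0.71 to 1.54). That difference rested on MDS/MPN array 2, without which it was 0.05.

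The MDS/MPN arrays and the undetermined array occupied one line of slide 2, and the MDS, mixed and WT arrays the other, so disease label and place on the slide cannot be told apart. Ezh1 probe 1 spanned 3.35 to 3.54 on the line with MDS/MPN and 3.78 to 4.41 on the line with MDS. On the line with MDS, the WT and mixed arrays, at 3.81 and 3.78, stood below both MDS arrays. Set against the 9-12-month WT array alone, Ezh1 probe 1 differed by -0.36 ± 0.53 on the MDS/MPN arrays and by 0.52 ± 0.29 on the MDS arrays, neither called.

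Some of the summed cell markers differed between the disease labels as well. The summed signal of the 5 LSK gate markers, as a ratio to the 75th percentile, was 220 to 254 on MDS/MPN arrays and 407 to 444 on MDS arrays. That of the 18 stem cell genes (among them Hlf, Procr and Slamf1) was 47.2 to 56.1 on MDS/MPN arrays and 126 to 133 on MDS arrays. The 8 neutrophil markers summed to 920 to 2164 on MDS/MPN arrays and 627 to 1009 on MDS arrays, and the 5 monocyte and dendritic markers to 104 to 180 on MDS/MPN arrays and 60.0 to 85.3 on MDS arrays. The 7 erythroid markers summed to 7.85 to 225 on MDS/MPN arrays and 198 to 345 on MDS arrays. Hbb-b1, a globin gene, was not well above background on MDS/MPN array 2. The 6 mast cell and basophil markers summed to 14.02 to 64.3 on MDS/MPN arrays and 17.9 to 96.3 on MDS arrays. The 6 B cell markers summed to 37.1 to 56.8 on MDS/MPN arrays and 25.0 to 26.0 on MDS arrays, and the 5 T cell markers to 4.69 to 13.6 on MDS/MPN arrays and 8.31 to 9.64 on MDS arrays. The neutrophil, erythroid, mast cell and basophil, and T cell ranges overlapped between the 2 labels. A sum is set mostly by its brightest genes, and of the 5 LSK gate markers 2 were higher and 3 lower on MDS/MPN arrays. Between all KO and both WT arrays the markers differed too, with 0 called. Of those tested, 6 of 6 erythroid markers were higher (median 3.88), 8 of 8 neutrophil (1.83) and 5 of 5 monocyte and dendritic (2.19). So were 5 of 5 mast cell and basophil (2.09), 3 of 3 B cell (1.18), 2 of 3 T cell (0.05) and 1 of 5 LSK gate markers (-0.24). Of named genes, 7536 of 12871 were higher. The part of the cell markers in the Ezh2 and Ezh1 values was not tested.

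The balance of the 2 enzymes was also taken within each array, as Ezh1 probe 1 minus the Ezh2 probe, which a single factor per array cannot change. It was 1.15, 0.20 and 1.11 on the MDS/MPN arrays, 1.96 and 2.28 on the MDS arrays, 0.89 on the undetermined array and 1.15 on the mixed KO array, against 1.17 on the 9-12-month WT array. At 3 months it was 1.03 on the KO array and 2.47 on the WT array. The levels of this difference depend on the probes, and only its change between arrays can be read. KO minus WT, fitted by least squares with slide as a block, was -0.48 (exact permutation within slides, two-sided p = 0.5625 over 16 arrangements, the smallest possible being 0.0625). Without the 3-month KO array it was 0.07. After quantile normalization and with normexp it was -0.52, and with Ezh1 probe 2 in place of probe 1 it was -0.44.

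Across the 10 arrays, Ezh1 probe 1 followed genes of blood stem cells. Under the scaling used here it also ran against genes of cell division, a relation that was weaker under other scalings. The lists were chosen with earlier results of these data known. The share of other probes with as strong an r was not examined, so neither relation is read as particular to Ezh1. The stem cell list was represented by 10 of its 18 genes, the mitosis list by 17 of 20 (among them Mki67 and Top2a) and the DNA replication list by 20 of 20 (among them the Mcm genes and Pcna), each as the mean of log2 values centred per gene, over genes well above background on all arrays. Ezh1 probe 1 had a Pearson r of 0.853 with the stem cell mean (permutation p = 0.00072, adjusted over 9 relations 0.00324) and a Spearman rho of 0.842 (permutation p = 0.00374, adjusted 0.0321). Its highest array, 3-month WT, also had the highest stem cell mean, 2.21, and the MDS arrays, at 0.66 and 0.62, stood above the MDS/MPN arrays, at -1.01, -0.31 and -0.54. The undetermined array had the lowest mean, -1.76. With the 2 arrays farthest from the median left out, r was 0.818 (n = 8, permutation p = 0.0124, adjusted 0.112), and on slide 2 alone it was 0.752 (n = 8, permutation p = 0.0333, adjusted 0.115). The relation thus kept its direction and lost its adjusted call with 8 arrays. Slide 1 held only 2 arrays and gives no value. For this and the following relations, the permutations exchanged the arrays of a set freely, across slides and groups. The p-values thus take the arrays as independent, though they share slides and disease labels and the mixed array may repeat mice.

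With the mitosis mean, Ezh1 probe 1 had a Pearson r of -0.877 (permutation p = 0.00056, adjusted 0.00324) and a Spearman rho of -0.806 (permutation p = 0.00713, adjusted 0.0321). Without the 2 farthest arrays it was -0.675 (permutation p = 0.0691, adjusted 0.168), and on slide 2 alone it was -0.815 (permutation p = 0.0128, adjusted 0.115). This relation depended on the scaling of the arrays, and r was -0.475 after quantile normalization (adjusted permutation p = 0.217) and -0.362 with the percentile taken over probes detected on all arrays (adjusted permutation p = 0.413). With the DNA replication mean, r was -0.801 (permutation p = 0.00574, adjusted 0.0172) and rho -0.745 (permutation p = 0.018, adjusted 0.054). Without the 2 farthest arrays it was -0.662 (permutation p = 0.0747, adjusted 0.168), and on slide 2 alone -0.733 (permutation p = 0.0382, adjusted 0.115). After quantile normalization r was -0.67 (adjusted permutation p = 0.102), and with normexp it was -0.634 (adjusted permutation p = 0.136). With the percentile over detected probes it was -0.725 (adjusted permutation p = 0.0486).

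The Ezh2 probe passed adjustment with none of the lists under the scaling used here. Its r was 0.647 with the mitosis mean (permutation p = 0.0573, adjusted 0.129; rho 0.515, permutation p = 0.134, adjusted 0.241). Without the 2 farthest arrays that r was 0.575 and on slide 2 alone 0.674. MDS/MPN array 2 had the highest values of both, 3.35 for Ezh2 and 0.66 for the mitosis mean, while 3-month WT had the lowest mitosis mean, -1.16, and nearly the lowest Ezh2. With the DNA replication mean, r was 0.232 (permutation p = 0.525, adjusted 0.525; rho 0.442, permutation p = 0.205, adjusted 0.307), and -0.026 without the 2 farthest arrays and -0.048 on slide 2 alone. This relation depended on the scaling: after quantile normalization r was 0.554 (adjusted permutation p = 0.196) and rho was 0.782 (permutation p = 0.0101, adjusted 0.0454), and with normexp r was 0.554 and rho 0.721 (adjusted permutation p = 0.103). With the stem cell mean, r was -0.36 (permutation p = 0.301, adjusted 0.339; rho -0.382, permutation p = 0.281, adjusted 0.361), and -0.154 and -0.157 in the same 2 subsets.

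Ezh2 and Ezh1 probe 1 had an r of -0.472 with each other (permutation p = 0.168, adjusted 0.252; rho -0.345, permutation p = 0.33, adjusted 0.371), which was -0.103 without the 2 farthest arrays and -0.351 on slide 2 alone. The sign turned with the percentile over detected probes, where r was 0.183. Against the percent of probes well above background, r was 0.481 for Ezh2 (permutation p = 0.165, adjusted 0.252; rho 0.152, permutation p = 0.683, adjusted 0.683) and 0.393 for Ezh1 (permutation p = 0.265, adjusted 0.339; rho 0.588, permutation p = 0.081, adjusted 0.182). Without the 2 farthest arrays these were -0.269 for Ezh2 and 0.696 for Ezh1, and on slide 2 alone 0.698 and 0.237. The arrays differ in genotype, time, disease and slide at once, and which of these the relations follow was not tested.

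**Figure D3:**
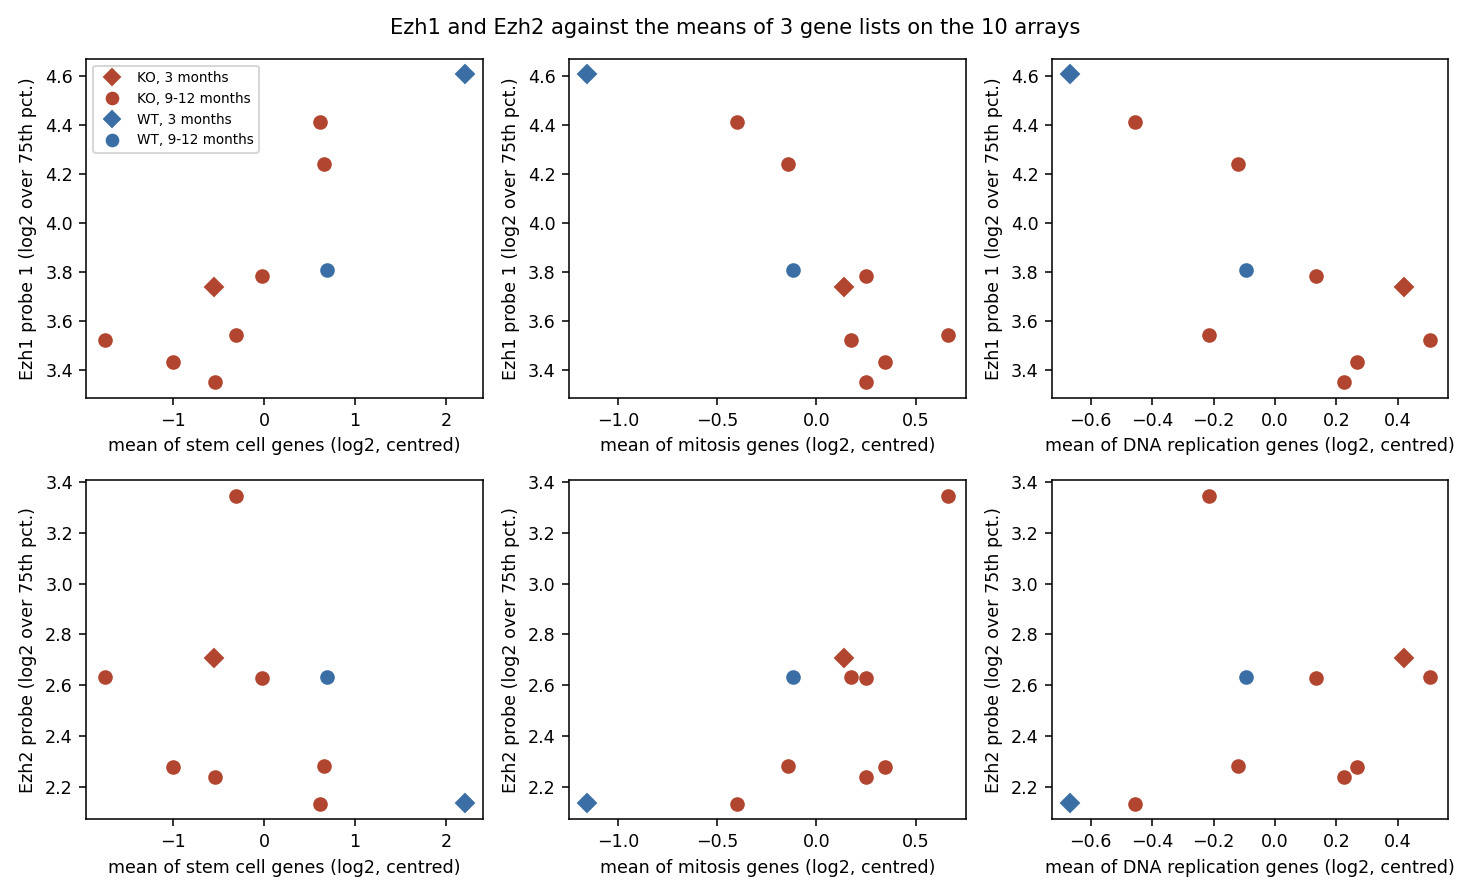
Ezh1 probe 1 (upper row) and the Ezh2 probe (lower row), as log2 signal over the 75th percentile, against the mean centred log2 value of the stem cell, mitosis and DNA replication genes, 1 point per array, red for KO and blue for WT, diamonds for 3 months and circles for 9-12 months. Ezh1 climbs with the stem cell mean (r = 0.853) and declines with the mitosis mean (r = -0.877), and the 3-month WT array lies at one end of both. Under other scalings the r with the mitosis mean was -0.475, -0.362 and -0.487, without an adjusted call.

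The genes whose values were most like those of each enzyme were taken from 9699 named genes well above background on all 10 arrays, by Pearson r over 10 arrays, as a description. For Ezh2 they were Stat2, a transcription factor of interferon signalling (r = 0.944), Polq, the DNA polymerase of end joining (0.942), Fubp1, a regulator of Myc (0.934), Slx4, a scaffold of DNA repair nucleases (0.924), and Hirip3 (0.922). The most opposed were Fbxo4 (-0.924), Fam229b (-0.911) and Pttg1ip (-0.906). Without MDS/MPN array 2, the r of these 8 genes was between 0.771 and 0.889 or between -0.783 and -0.732.

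For Ezh1 probe 1 the most alike were Zfand3 (r = 0.948), Fgfr3, a fibroblast growth factor receptor (0.946), St3gal1, a sialyltransferase (0.942), Adgrg1, an adhesion receptor known from blood stem cells (0.94), and Trib3, a pseudokinase (0.938). The most opposed were Kif24, a kinesin (-0.935), Dis3, a nuclease of the RNA exosome (-0.931), and Ap1g2, an adaptor of vesicle coats (-0.93). Without MDS/MPN array 2 these were 0.935 to 0.945 and -0.945 to -0.927. Ezh2 itself stood at -0.472 with Ezh1.

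The partners of the enzymes were next examined, with 1 probe, the brightest, per gene. Of 11 other PRC2 subunits, 10 could be tested and Ezhip, an inhibitor of the complex, was well above background on none of the arrays. Of the 10, 0 passed with limma in any of the 4 comparisons. Of all probes, 0.538% were called at 9-12 months and 0.0% in the other comparisons, so this count says nothing particular about the subunits. In all KO against both WT, 8 were higher and 2 lower with a median of 0.15, against a median of 0.10 over 12871 named genes. Of the 10, 1 had an unadjusted limma p under 0.05, against 5.65% of those named genes. The core subunits differed by little beside their error: Eed, which reads the methyl mark, by 0.18 ± 0.31 (limma adjusted p = 0.975), and Suz12, the scaffold, by 0.11 ± 0.50 (limma adjusted p = 0.994).

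Epop, an accessory subunit that links PRC2 to elongin, was the 1 with an unadjusted p under 0.05. It read 4.17, 3.65 and 4.33 on MDS/MPN arrays, 3.72 and 3.57 on MDS arrays, 3.98 on the undetermined array and 3.56 on the mixed KO array, against 3.10 on the 9-12-month WT array. At 3 months it read 3.67 on the KO array and 2.08 on the WT array. All 8 KO arrays were above both WT arrays, as were 3.2% of all probes, and the difference was 1.06 ± 0.34 (limma unadjusted p = 0.00998, adjusted p = 0.664).

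The Polycomb-like subunits, which recruit PRC2 to unmethylated CpG-rich DNA, did not go one way. Phf1 differed by -1.36 ± 0.94, Phf19 by 0.51 ± 0.30 and Mtf2 by -0.44 ± 0.37 (each limma adjusted p = 0.960). Phf1 was well above background on 7 arrays and not on MDS/MPN arrays 1 and 3 or the undetermined array. It ranged from -3.70 to 0.07 on the KO arrays, against -0.45 and 0.52 on the WT arrays, and the groups overlapped. In MDS/MPN against MDS, 5 of the 10 subunits were higher and 5 lower, with a median of 0.004 against 0.04 over 12403 named genes.

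**Figure D4:**
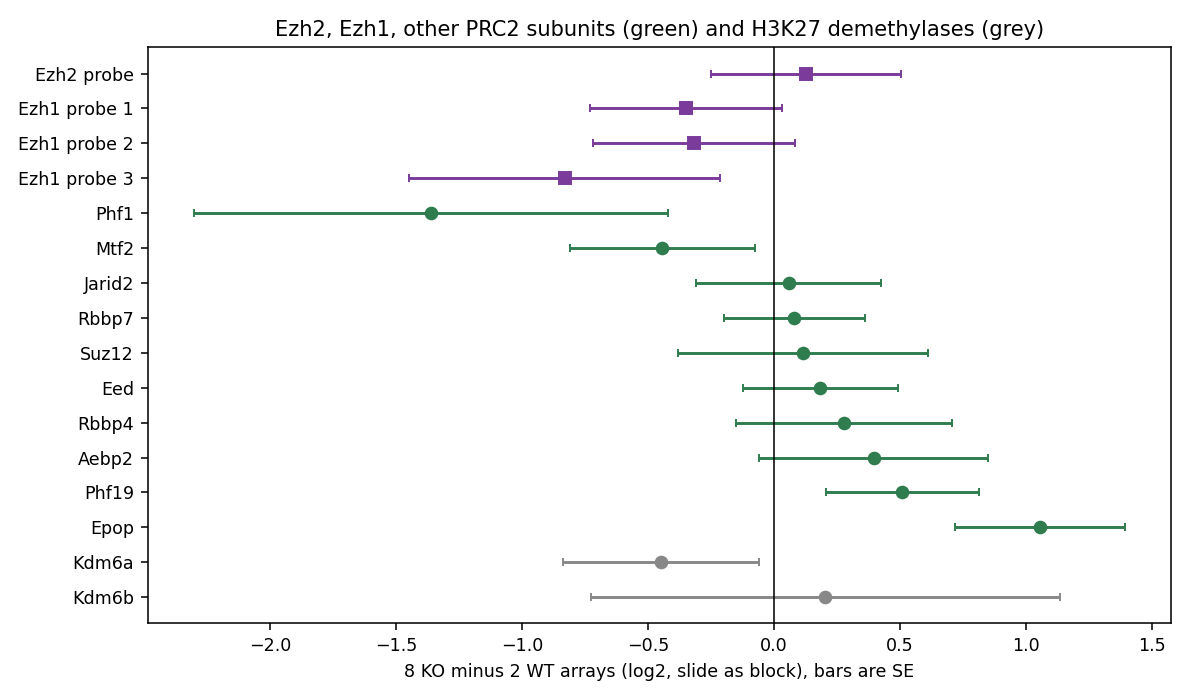
Difference in log2 signal between the 8 KO and the 2 WT arrays with slide as a block (horizontal axis), with SE bars, for the Ezh2 and Ezh1 probes (purple squares), 10 other PRC2 subunits (green) and 2 H3K27 demethylases (grey). Eed and Suz12 lie near 0, Epop is at 1.06 and Phf1 at -1.36, and no gene passed adjustment.

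The enzymes that remove the mark, Kdm6a and Kdm6b, differed by -0.45 ± 0.39 and 0.20 ± 0.93 between all KO and both WT arrays (limma adjusted p = 0.960 and 0.995). Of 25 other histone methyltransferases, 23 were tested in the same comparison and 0 passed with limma, where 0.0% of all probes passed. At an unadjusted limma p under 0.05 there were again 0, against 5.65% of named genes. Of these 23, 17 were higher and 6 lower, with a median of 0.35. The largest differences were 1.03 ± 0.51 for Dot1l, the H3K79 methyltransferase, 0.84 ± 0.43 for Setd1a and 0.79 ± 0.54 for Setd1b, both writers of the active H3K4 mark (limma adjusted p = 0.951, 0.954 and 0.960). Of 14 genes that PRC2 is known to silence in other tissues, only 5 were bright enough to test in the same comparison. Gata4 and Pax7 were among those too dim. Of the 5, 0 passed with limma and 0 were at an unadjusted limma p under 0.05, against 5.65% of named genes. By time, the KO effects of the 5 tested differed by -0.76 to 5.86, with single arrays at 3 months.

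The lists set against Ezh1 moved in the same comparison, all without an adjusted call. Of 17 stem cell genes tested, 0 were higher and 17 lower in all KO against both WT, with a median of -1.84 and 9 at an unadjusted p under 0.05 by limma, against 5.65% of all named genes. Of 19 mitosis genes, 19 were higher and 0 lower, with a median of 0.63, and of 20 DNA replication genes, 19 were higher and 1 lower, with a median of 0.48. In the 6 KO arrays against the WT array at 9-12 months, 14 of 15 stem cell genes were lower, with a median of -1.18 and 0 at an unadjusted p under 0.05. There 15 of 19 mitosis genes and 13 of 20 DNA replication genes were higher, with medians of 0.14 and 0.12. In MDS/MPN against MDS, 12 of 16 stem cell genes were lower, with a median of -1.31 and 10 at an unadjusted p under 0.05, against 5.12% of all named genes, and 19 of 19 mitosis genes were higher, with a median of 0.66. Of all named genes, 7536 of 12871 were higher in all KO, 6647 of 12016 at 9-12 months and 6570 of 12403 by disease. Ezh1 probe 1 was -0.35 in all KO and -0.88 by disease, the sign of the stem cell genes. At 9-12 months it was -0.06, and probe 2 was 0.05. These are the same arrays as in the correlations above, so a shared sign is no separate evidence.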

How the data were processed

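Per the file headers, the deposited scanner files hold an intensity per spot from Feature Extraction 10.7.1.1, with local background subtracted and detrended within the array, not scaled between arrays; the submitters' processing notes name version 9.1. The array annotation is on mm9, per the file headers. The deposited value table holds a ratio of the same intensity to the array's 75th percentile, found by matching each column to each scanner file; column medians ran from 0.072 to 0.115. RefSeq accessions gave 27650 probes 1 gene symbol each, looked up in RefSeq's GRCm38.p6 genes.

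Each value is the log2 of intensity over the array's 75th percentile, without control or outlier spots. A probe was tested when well above background on at least 50% of the arrays of 1 group compared. Tests used limma 3.58.1 in R 4.3.3, checked on simulated data; correlations used 100000 permutations, and enumeration for 8 arrays or fewer, in Python 3.11.15 with numpy 2.4.6, pandas 2.3.3 and scipy 1.17.1. P-values over replicates measure the spread between arrays, and the number of arrays limits precision. Members and lists were chosen with earlier results of these data known. Other genes were named by a fixed rule: Eed, Suz12 and the 4 PRC2 subunits and 3 other methyltransferases with the largest difference in all KO against both WT, and the 5 genes most like and 3 most opposed to each enzyme. The level of 1 marker gene is not reported here.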

Additional observations from a re-analysis of the deposited data

Results flagged for a closer look

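The Ezh2 value of MDS/MPN array 2, 3.35, stood apart from the other KO arrays: its gap to the next highest of the 8 KO arrays was 0.528 of their range, just past the critical value of 0.526 of Dixon's test. Among the 6 KO arrays of single mice the gap was 0.588 of the range, under the critical value of 0.625. Chance marks about 1 group in 20 by this test, and 4 probes were examined in both sets of arrays. The same array had the highest 75th percentile signal, 301.7 units, and the highest share of probes well above background, 47.5%. Without it, the Ezh2 probe averaged 2.41 ± 0.23 (SD) on the other 7 KO arrays. The part of array signal in this value was not tested.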

How the results depend on the processing

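No member passed the adjusted threshold in any of 245 fits under alternative settings, where the lowest limma adjusted p was 0.116, and 218 kept the direction of the reported value. These fits are not separate checks. Settings that changed only the filter, the choice of probe or the estimate of spread left a difference as it was. Some other settings compared the same arrays under 2 names. The 218 is therefore no measure of how firm a direction is. Differences near 0 turned sign, as did larger ones under the time labels of the value table. Values of Ezh1 probe 3 are estimates from a signal that was well above background on 4 of 10 arrays and fix no size; with normexp they were -0.27 by disease, -0.081 in all KO and 0.62 by time, against -1.29, -0.83 and 2.10. At 9-12 months, Ezh1 probe 2 was -0.014 with quantile normalization, -0.074 with the percentile over detected probes and -0.28 with MDS/MPN arrays alone; probe 3 was 0.15 with normexp and 0.71 with MDS arrays alone, where probe 1 was 0.52. With the time labels of the value table Ezh2 was 0.35 and Ezh1 probes 1 to 3 were -0.86, -0.62 and -0.98. In all KO against both WT, Ezh2 was -0.0022 with quantile normalization, -0.079 with the percentile over detected probes, -0.052 with normexp and -0.13 on slide 2 alone, where Ezh1 probe 2 was 0.047. With the value table's time labels, the excess of the later over the earlier KO effect was 0.35 for Ezh2 and -0.83, -0.65 and -1.004 for Ezh1 probes 1 to 3. These exchanged labels also turn the single pairs: the 3-month KO minus WT pair then gave -0.004, -0.024, 0.025 and 0.035 for Ezh2 and the 3 Ezh1 probes in turn, the mixed KO minus WT pair 0.57, -0.87, -0.95 and -2.19, and the WT pair -0.50, 0.80, 0.67 and 0.90. With normexp, the estimate for probe 3 in the 3-month pair, its KO signal not being well above background, was -0.47.

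Leaving out 1 array at a time, the 9-12-month KO difference ranged over -0.32 to -0.08 for Ezh2 and -0.19 to 0.024, -0.081 to 0.14 and -0.062 to 0.19 for Ezh1 probes 1 to 3. For all KO it was -0.13 to 0.57 for Ezh2 and -0.87 to -0.05, -0.96 to 0.047 and -2.18 to -0.06 for the Ezh1 probes; leaving out each WT array was added after the data were seen. For MDS/MPN against MDS it was 0.05 to 0.60 for Ezh2 and -0.97 to -0.80, -0.99 to -0.88 and -1.66 to -0.87 for the Ezh1 probes. For the KO effect by time it was -0.89 to -0.64 for Ezh2 and 0.68 to 0.89, 0.87 to 1.097 and 1.93 to 2.37 for the Ezh1 probes. For Ezh1 minus Ezh2 it was -0.59 to 0.074. Ezh1 probe 3 was too dim to be tested in some of these fits. Its ranges cover 3 of 6 fits at 9-12 months and 9 of 10 in all KO.

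Of the relations, Ezh1 probe 1 with the mitosis mean lost its adjusted call at r = -0.475 (quantile), -0.362 (percentile over detected probes), -0.487 (normexp), -0.675 (without the 2 farthest arrays), -0.815 (slide 2) and -0.849 (6 KO arrays of single mice), and with the DNA replication mean at -0.67 (quantile), -0.634 (normexp), -0.662, -0.733 and -0.745 in the same 3 subsets. With the stem cell mean it held under the 3 other scalings, at r = 0.903, 0.916 and 0.924, and lost its call in those subsets at 0.818, 0.752 and 0.812. Ezh2 turned sign with DNA replication at -0.026, -0.048 and -0.045 in the subsets, against r = 0.554 with quantile normalization and with normexp, with the stem cell mean at 0.163 and with Ezh1 at 0.183 under the percentile over detected probes, and with the share of probes above background at -0.269 without the 2 farthest arrays. The cause of these changes was not tested; the subsets hold fewer arrays.

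Over all probes, the number called ranged from 0 to 269 at 9-12 months (124 as reported), 0 to 194 in all KO and 0 to 188 by time, and was 0 by disease in each setting run. The percentile over detected probes moved the median of all probes by disease to -0.17, against -0.007. No paired analysis was possible because the labels give the arrays no shared replicate numbers.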
